A study of Homo sapiens with 3 samples.

Results

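The retinoid handling genes described here are 6 genes that make, store, bind, sense or destroy retinoic acid: ALDH1A2, DHRS3, CRABP1, CRABP2, RARB and CYP26A1. They were chosen by their symbols among the 38606 genes counted in each library, and all 6 were found once. The cells came from HES3, an established human embryonic stem cell line, in which a green fluorescent protein reporter marks MIXL1 (MIXL1:GFP), and they were grown as micropatterned colonies, sheets of cells confined to a printed pattern. All colonies were seeded with 10 µM of the ROCK inhibitor Y-27632 in mTeSR Plus, left for 24 h and treated for 48 h. The BMP4 colonies received 50 ng/mL of recombinant human BMP4, the CHIR colonies received CHIR99021 at 6 µM, a GSK3 inhibitor that switches on WNT signalling, and the CHIR+Activin colonies received a lower dose of CHIR99021, 3 µM, together with the TGF-beta family ligand Activin A at 100 ng/mL. About 10 colonies of each treatment were pooled into 1 library of 10x Genomics 3' single-cell RNA sequencing. With 1 library per treatment there was no replicate, so no difference between treatments could be tested and no p-value is given.

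Retinoic acid is made from vitamin A (retinol) in steps of oxidation. Retinol dehydrogenases such as RDH10 make retinaldehyde, and ALDH1A2 turns it into retinoic acid irreversibly, while DHRS3 reduces retinaldehyde back to retinol. CRABP1 and CRABP2 carry retinoic acid inside the cell, RARB is one of the nuclear receptors that bind it at DNA, and CYP26A1 is a cytochrome P450 that oxidises it for disposal. In vertebrate embryos ALDH1A2 in mesoderm and CYP26A1 in neighbouring cells, among them those of the early primitive streak and the tail bud, are known to set where retinoic acid can act. RARB, CYP26A1 and DHRS3 are also textbook targets of the acid itself.

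Retinoic acid receptors bind pairs of a 6-base repeat, and the spacing of 5 bases, called DR5, is the best known arrangement. The RefSeq promoter windows of the members, 250 bases before to 50 bases after each annotated transcript start in GRCh38.p14, were searched on both strands for the DR5 retinoic acid response element. All 6 members had a window, 13 in all, and 2 of the 13 held a match. These 2 are shown because they place the breakdown enzyme and the receptor side by side, with the element in capitals. The CYP26A1 window lies at chr10:93073643-93073942 on the plus strand, and its match reads on the minus strand. The RARB window lies at chr3:25428013-25428312 on the plus strand, with its match on the plus strand.
CYP26A1: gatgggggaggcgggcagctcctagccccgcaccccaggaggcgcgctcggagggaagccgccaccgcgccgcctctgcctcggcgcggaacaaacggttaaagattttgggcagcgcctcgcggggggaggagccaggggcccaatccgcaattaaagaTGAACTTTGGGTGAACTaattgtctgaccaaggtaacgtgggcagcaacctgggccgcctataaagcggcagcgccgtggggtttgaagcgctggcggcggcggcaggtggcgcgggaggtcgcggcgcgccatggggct
RARB: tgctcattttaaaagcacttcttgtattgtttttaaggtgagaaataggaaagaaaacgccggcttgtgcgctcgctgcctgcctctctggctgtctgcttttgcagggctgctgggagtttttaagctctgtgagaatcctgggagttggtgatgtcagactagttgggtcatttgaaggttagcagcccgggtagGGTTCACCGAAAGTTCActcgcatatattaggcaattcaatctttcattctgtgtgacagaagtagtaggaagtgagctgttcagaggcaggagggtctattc

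Read on its own strand, the CYP26A1 element is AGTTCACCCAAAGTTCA and the RARB element is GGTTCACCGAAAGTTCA. The CYP26A1 element occupied bases 161 to 177 of its window, counted from the 5′ end, and ended 73 bases before the transcript start. The RARB element occupied bases 198 to 214 and ended 36 bases before the start. Both hold the letters GTTCA, any 5 bases and AGTTCA, a motif that occurred in 12 of 35116 promoter windows (0.0342%) of the table. These letters are common to the elements shown, whose windows are among the 12, so the share is not a test of these members. The DR5 element as a whole occurred in 31 windows (0.0883%), and the versions with 2 bases and 1 base of spacing in 14 (0.0399%) and 46 (0.131%). The letters AGGTCA, any 5 bases and AGGTCA, which are 1 case of the DR5 element, occurred in 2 windows and in no window of a member. No window of the other 4 members held any of the 3 spacings. A match describes letters in these windows and is not a measurement of receptor binding. The data hold RNA only. In BMP4, CYP26A1 was detected in 28 of 140 cells with RARB (20%, 13.7 to 27.6) and in 39.8% (38.7 to 41.0) of cells without. In CHIR+Activin the shares were 17.3% (10.6 to 26.0) and 16.2% (15.3 to 17.1), and in CHIR 7.52% (3.66 to 13.4) and 10.3% (9.63 to 11.1), both with overlapping intervals.

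The filtered libraries held 9401 (BMP4), 7084 (CHIR) and 6876 (CHIR+Activin) cells, with 137174566, 185215378 and 130592423 unique molecular identifiers (UMIs, each standing for 1 captured RNA molecule). Median depth was 12623, 22919.5 and 17202 UMIs per cell. Between 8 and 12 cell barcodes were shared by any pair of libraries and 0 by all 3. POU5F1, a gene of pluripotent and early streak cells, stood at 896 to 1070 CPM (UMIs scaled to the same total in each library) in the 3 libraries, and the reporter's gene MIXL1 at 171 to 282 CPM. HAND1, TFAP2A and GATA3 were at 129, 31.1 and 26.9 CPM in BMP4 and at most 1.19 CPM in the other libraries, whereas FOXA2 was at 2.93 CPM in BMP4, 54.6 in CHIR and 40.5 in CHIR+Activin. SOX2 was lowest in BMP4, at 23.9 CPM against 71.2 and 86.3.

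The breakdown enzyme CYP26A1 (ENSG00000095596) was the member that differed most between the libraries. Its level, UMIs summed over the kept cells and given as CPM, was 109.7 CPM in BMP4 (exact 95% interval 108 to 111), 13.4 CPM in CHIR (12.9 to 13.9) and 33.8 CPM in CHIR+Activin (32.8 to 34.8). BMP4 was highest and CHIR lowest, and the 3 intervals, which cover counting error only, did not overlap. The log2 ratio of CHIR over BMP4 was -3.04 (-3.10 to -2.97), a level 8.20-fold lower, which ranked 77 from the lowest among the 10122 genes that reached 10 CPM in 1 of these libraries or both. The ratio of CHIR+Activin over BMP4 was -1.70 (-1.75 to -1.65), and these comparisons share the BMP4 library. Between the libraries that both received CHIR99021, at different doses, CYP26A1 was 2.52-fold higher with Activin (log2 ratio 1.34, 1.26 to 1.41), which ranked 9 from the highest among 9821 genes.

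Of the 6 members, 3 reached 10 CPM in a library, namely CYP26A1, CRABP1 and CRABP2. CYP26A1 alone of these 3 was at least 2-fold apart in any pair of libraries, beside 5.94% of all genes in either direction for CHIR over BMP4, 4.72% for CHIR+Activin over BMP4 and 0.204% for CHIR+Activin over CHIR. It was lower in CHIR than in BMP4, where 3.09% of all genes compared were at least 2-fold lower. It was lower in CHIR+Activin than in BMP4, where 2.88% were, and higher in CHIR+Activin than in CHIR, where 0.183% were. At a minimum of 1 CPM all 6 members were counted, and ALDH1A2 joined CYP26A1 as at least 2-fold lower in both comparisons with BMP4, where 4.69% of all genes were lower in CHIR and 4.57% in CHIR+Activin. At that minimum 4.77% and 2.79% of genes were at least 2-fold higher than in BMP4, and between the CHIR99021 libraries 0.467% were higher and 0.0958% lower with Activin, CYP26A1 among the higher. The median log2 ratio of the 3 members at 10 CPM was 0.18 for CHIR over BMP4, -0.28 for CHIR+Activin over BMP4 and 0.07 for CHIR+Activin over CHIR, beside 0.03, -0.01 and -0.05 for all genes.

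**Figure D1:**
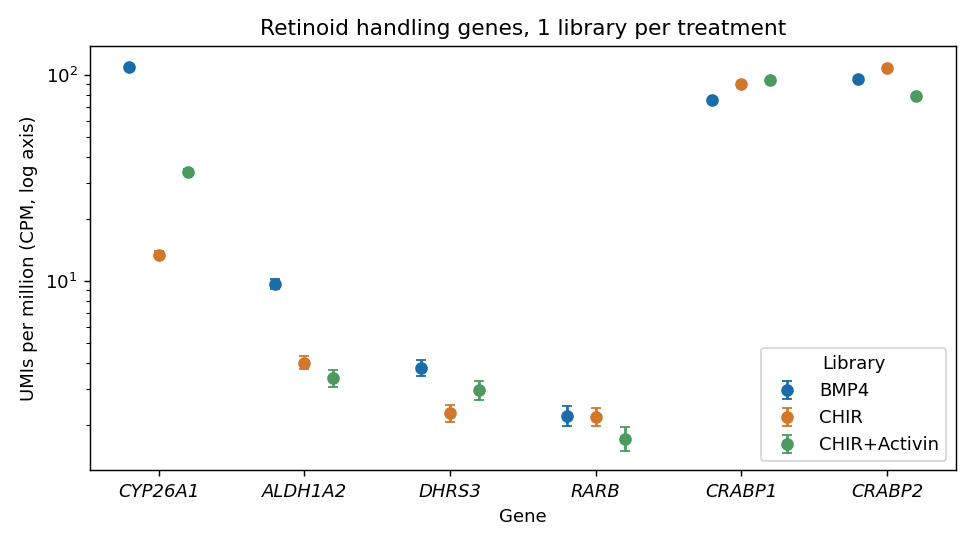
Level of each of the 6 genes in each library (BMP4, CHIR, CHIR+Activin), in CPM on a log axis, with exact 95% intervals for counting error (mostly smaller than the points). CYP26A1 spans 13.4 to 109.7 CPM and ALDH1A2 3.38 to 9.64 CPM, while the other 4 genes stay within 2-fold between the libraries.

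To compare cells of different depth, each cell with at least 10000 UMIs was thinned at random to 10000, which kept 7041 BMP4, 6892 CHIR and 6543 CHIR+Activin cells and left out 2360, 192 and 333. A gene is called detected in a cell that kept at least 1 of its UMIs. CYP26A1 was detected in 39.5% of BMP4 cells (38.3 to 40.6), 10.3% of CHIR cells (9.58 to 11.0) and 16.2% of CHIR+Activin cells (15.3 to 17.1). Without thinning, and over all kept cells, the shares were 44.6%, 18.7% and 22.3%. The order of the libraries was the same as for the summed level.

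The 5% of cells richest in CYP26A1 held 36.5% of its thinned UMIs in BMP4, 63.2% in CHIR and 62.9% in CHIR+Activin. Cells with 10 or more CYP26A1 UMIs numbered 81 in BMP4, 0 in CHIR and 20 in CHIR+Activin, and the richest cell of each library had 24, 9 and 17. CHIR+Activin and CHIR thus each held fewer positive cells than BMP4 and fewer UMIs per positive cell. The means per positive cell were 2.80 UMIs in BMP4, 2.19 in CHIR+Activin and 1.39 in CHIR.

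Cells were grouped by transcripts of marker genes, counting a cell as positive at 2 or more thinned UMIs and as negative at 0. In BMP4, CYP26A1 followed several genes of the primitive streak and early mesoderm, but not the caudal factor CDX2. It was detected in 70.7% (68.7 to 72.7) of the 2048 cells positive for CER1, a secreted NODAL and BMP antagonist, and in 62.3% (59.7 to 64.9) of the 1371 cells positive for the mesoderm factor MESP1 without HAND1. It was detected in 54.2% of MIXL1+ cells and in 52.3% of cells positive for the streak factor TBXT. Among the 181 CDX2+ cells its share was 21.5% (15.8 to 28.3), against 40.7% of cells without CDX2.

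At the other end, CYP26A1 was detected in 8.99% (5.84 to 13.1) of the 267 SOX2+ TBXT- cells, which keep the pluripotency factor SOX2. It was detected in 7.81% (3.81 to 13.9) of the 128 cells positive for TFAP2A and GATA3, and in 13.1% (8.52 to 19.1) of the 175 cells positive for SOX17 and TFAP2C, a pair known from human primordial germ cells. Median depths before thinning were 14367.5 UMIs in the CER1+ cells and 18350 in the TFAP2A+ GATA3+ cells, so the lowest share was in the deeper group. MIXL1+ cells made up 59.7% of thinned BMP4 cells and held 87.3% of the CYP26A1 UMIs, and CER1+ cells made up 29.1% and held 63.7%. Of the 478 cells with 5 or more CYP26A1 UMIs, 0 were TFAP2A+ GATA3+, SOX17+ TFAP2C+ or SOX2+ TBXT- (exact upper limit 0.769% each). Of the same cells, 92.7% were MIXL1+ and 77.8% CER1+.

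RNA free in the droplets bears on the lowest shares. In 79779 BMP4 droplets of 30 to 200 UMIs, taken as holding no cell, CYP26A1 stood at 95.2 CPM, close to its level in cells, and a UMI of it was found in 0.772% of droplets at a median of 78 UMIs. The shares of 7.81% and 8.99% are therefore not read as expression. Shares in the CER1+ and TFAP2A+ GATA3+ cells of 1 library differed far beyond their counting intervals. How much of each share was free RNA was not tested. For CHIR and CHIR+Activin only barcodes called as cells were analysed here.

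**Figure D2:**
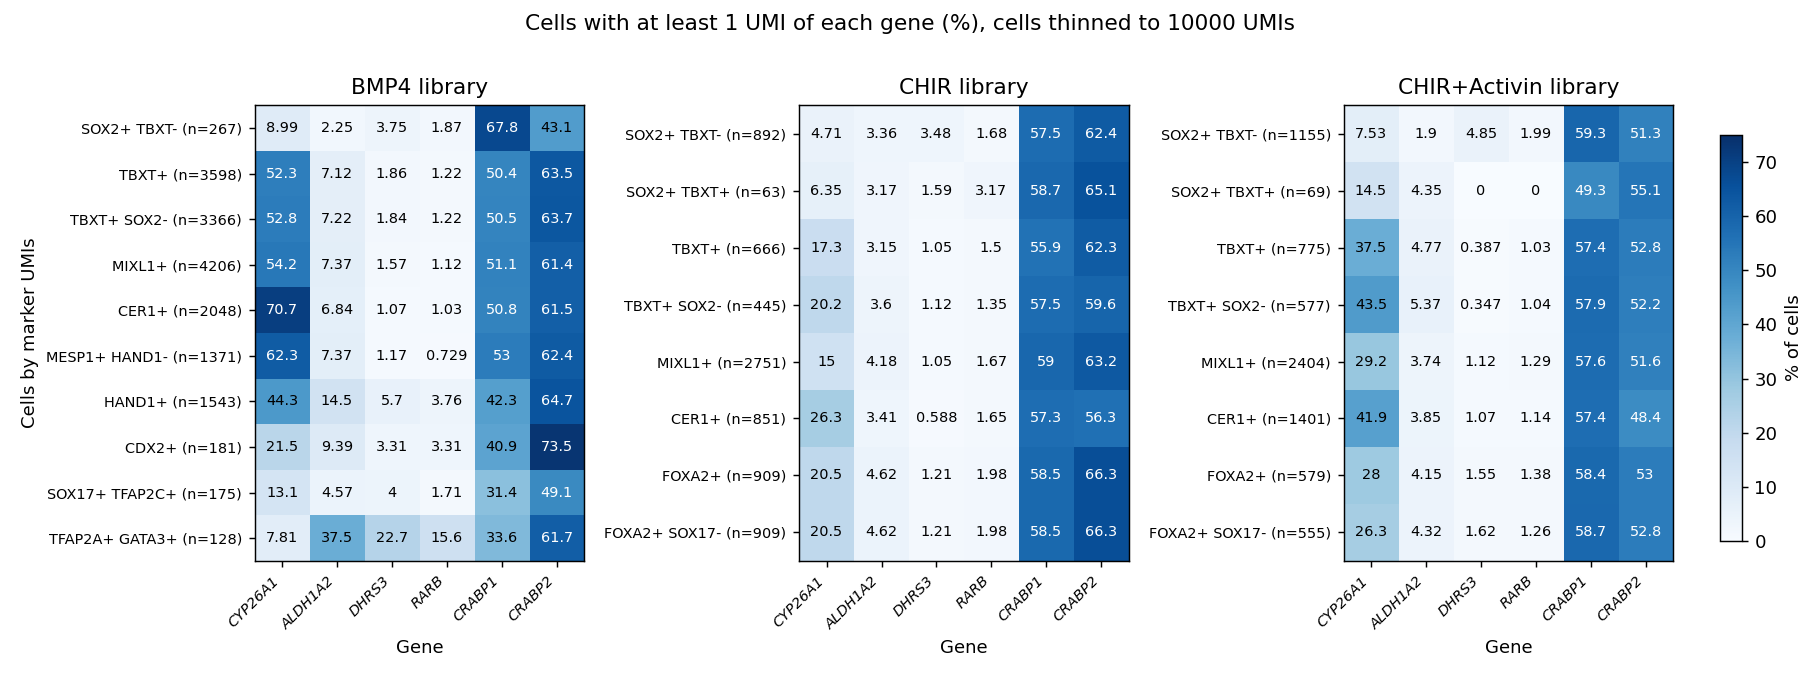
Share of cells (%) in which each of the 6 genes was detected, after thinning to 10000 UMIs, in groups of cells defined by marker genes (rows, with the number of cells) in each library (panels). Darker blue is a higher share. CYP26A1 runs from 7.81% to 70.7% between the BMP4 groups, and ALDH1A2, DHRS3 and RARB are each highest in the TFAP2A+ GATA3+ cells of BMP4.

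In the other libraries CYP26A1 was detected less often than in BMP4 among CER1+, MIXL1+ and TBXT+ cells. In CHIR+Activin it was detected more often than in BMP4 among cells with 1 MESP1 UMI (55.6% of 117 cells against 41.4% of 897). The same held for cells with 1 SOX17 UMI (71.2% of 52 cells against 34.0% of 409). A cell with 1 UMI is not counted as positive for that marker. MESP1 stood at 144.6 CPM in BMP4 droplets without a cell and at 4.79 CPM in CHIR+Activin cells. The part of free RNA in these groups was not tested, so they are not read as like cells. In CHIR, CYP26A1 was detected in 26.3% (23.4 to 29.4) of 851 CER1+ cells and in 20.5% of 909 FOXA2+ cells. Its share was 14.98% in 2751 MIXL1+ cells. The SOX2+ TBXT- cells of CHIR had the lowest share, 4.71% (3.41 to 6.31) of 892 cells, at a median depth of 24137.5 UMIs against 23134 in the CER1+ cells. In CHIR+Activin it was detected in 43.5% (39.4 to 47.7) of 577 TBXT+ SOX2- cells, in 41.9% (39.3 to 44.5) of 1401 CER1+ cells and in 7.53% (6.08 to 9.21) of 1155 SOX2+ TBXT- cells. The CER1+ cells were 21.4% of thinned CHIR+Activin cells and held 72.1% of the CYP26A1 UMIs. The FOXA2+ cells of CHIR+Activin had a share of 28.0%, and all 909 FOXA2+ cells of CHIR lacked SOX17.

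In every library CYP26A1 was higher at each step up in MIXL1, but not to the same height. In cells with no MIXL1 UMI its mean was 0.191 UMIs per cell in BMP4, 0.0723 in CHIR and 0.0875 in CHIR+Activin. In cells with 2 to 3 MIXL1 UMIs the means were 1.06, 0.159 and 0.325, and in cells with 8 or more they were 2.53, 0.569 and 2.15. At the top of the MIXL1 range, CHIR+Activin (268 cells) thus came near BMP4 (610 cells), while CHIR (123 cells) stayed lower. When every library was weighted to the same mix of MIXL1 levels, the mean of the 3 libraries' own mixes, the means were 0.877, 0.166 and 0.420 UMIs per cell, beside 1.11, 0.144 and 0.355 unweighted. The libraries kept their order at an equal mix of these MIXL1 bins. Within a bin, MIXL1 could still differ between the libraries, and the part of free RNA in the means was not tested.

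Weighting by CER1 in the same way gave 0.923, 0.218 and 0.355 UMIs per cell. In the cells richest in CER1, with 8 or more UMIs, the means of CYP26A1 were 3.23 in 879 BMP4 cells, 1.08 in 50 CHIR cells and 2.49 in 425 CHIR+Activin cells. CHIR again stayed lowest. Of the cells with 5 or more CYP26A1 UMIs, 17 of 20 in CHIR and 102 of 112 in CHIR+Activin were CER1+.

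**Figure D3:**
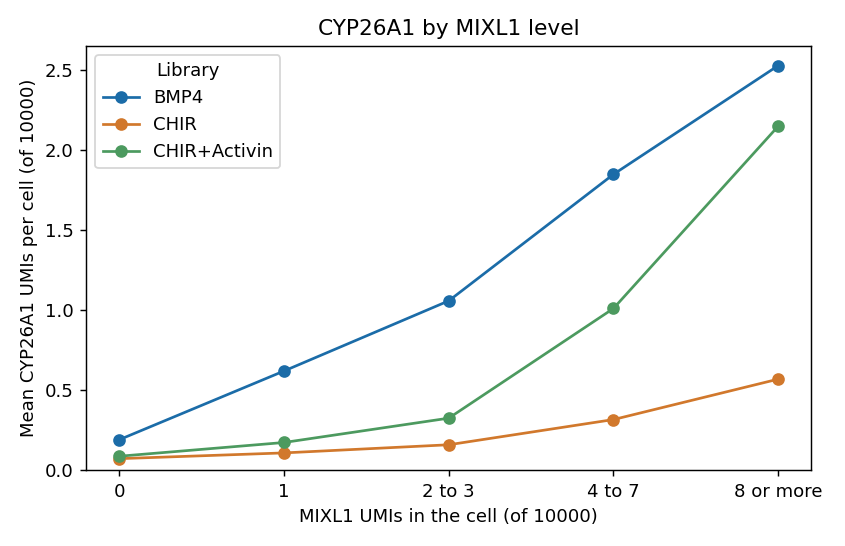
Mean CYP26A1 UMIs per cell (vertical axis, cells thinned to 10000 UMIs) in cells binned by their MIXL1 UMIs (horizontal axis) in each library, without error bars because cells are not replicates. The mean climbs to 2.53 in BMP4 and 2.15 in CHIR+Activin at 8 or more MIXL1 UMIs and to 0.569 in CHIR.

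The genes whose pattern across cells was most like that of CYP26A1 were largely shared by the libraries. Likeness was Pearson's r of log2(UMIs + 1) over the thinned cells of a library, which share that library and 1 depth, among genes detected in at least 5% of cells. In 7041 BMP4 cells the 5 leading genes of 11558 were FGF17, an FGF ligand (r = 0.515), CER1 (0.500), the anterior streak factor LHX1 (0.439), the endoderm and mesoderm factor GATA6 (0.439) and MIXL1 (0.430). In 6892 CHIR cells they were FGF17 (0.303), the WNT antagonist DKK1 (0.262), CER1 (0.260), GATA6 (0.233) and the cadherin CDH2 (0.192, too weak to read). In 6543 CHIR+Activin cells they were FGF17 (0.543), GATA6 (0.524), CER1 (0.515), LHX1 (0.479) and DKK1 (0.453). FGF17, CER1 and GATA6 were among the 5 in all 3 libraries.

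ALDH1A2 (ENSG00000128918), the enzyme that makes retinoic acid, was also highest in BMP4. Its level was 9.64 CPM in BMP4 (9.13 to 10.2), 4.01 CPM in CHIR (3.73 to 4.31) and 3.38 CPM in CHIR+Activin (3.08 to 3.72), log2 ratios to BMP4 of -1.27 (-1.40 to -1.13) and -1.51 (-1.67 to -1.35). It was detected in 7.44% (6.84 to 8.08), 3.70% (3.27 to 4.17) and 2.98% (2.58 to 3.42) of thinned cells, and in 9.76%, 8.78% and 5.63% of all kept cells without thinning. Cells with 3 or more UMIs numbered 28 in BMP4, 1 in CHIR and 0 in CHIR+Activin. The richest cell of each library held 11, 3 and 2 UMIs, so cells rich in ALDH1A2 were found mainly in BMP4.

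Across BMP4 cells ALDH1A2 and CYP26A1 were highest in different groups, although CYP26A1 was detected in 36.6% (32.5 to 40.9) of the 524 cells with ALDH1A2 and in 39.7% of those without. ALDH1A2 was detected in 37.5% (29.1 to 46.5) of the 128 TFAP2A+ GATA3+ cells, against 6.19% (5.54 to 6.89) of the 5090 cells with neither marker and 2.25% (0.829 to 4.83) of the SOX2+ TBXT- cells. The summed level was 67.5 CPM in the TFAP2A+ GATA3+ cells and 2.50 CPM in the SOX2+ TBXT- cells, at median depths of 18350 and 15719 UMIs. TFAP2A and GATA3 are known as markers of amnion and trophoblast. The amnion marker ISL1 was detected in 64.1% of these cells against 4.44% of cells with neither gene, GATA2 in 32.0% against 1.965% and GABRP in 12.5% against 2.20%. HAND1, a factor of extraembryonic mesoderm and amnion, was detected in 82.8% of them against 29.4%.

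HAND1 itself tracked ALDH1A2 over a wider set of cells. ALDH1A2 was detected in 5.18% of the 4632 BMP4 cells with no HAND1 UMI, 7.04% of 866 cells with 1, 10.2% of 738 cells with 2 to 3, 14.004% of 507 cells with 4 to 7 and 25.8% (21.0 to 31.2) of 298 cells with 8 or more. Every step up in HAND1 had a higher share of ALDH1A2. TFAP2A was detected in 14.4% of cells in the lowest of these bins and in 46.3% in the highest, so both markers moved together with ALDH1A2, and their parts in it were not tested. The HAND1+ cells, 21.9% of thinned BMP4 cells, held 48.1% of the ALDH1A2 UMIs. HAND1 was at 0.130 CPM in CHIR and 1.19 CPM in CHIR+Activin, too few counts for the same bins there.

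CYP26A1 followed HAND1 up and then down. It was detected in 35.9%, 49.5%, 53.8%, 42.8% and 23.5% of cells over the same 5 bins, highest at 2 to 3 HAND1 UMIs. CER1 had the same shape, in 31.7%, 52.0%, 61.9%, 55.6% and 32.2% of cells. Cells with the most HAND1 thus had the lowest share with CYP26A1 and the highest share with ALDH1A2.

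**Figure D4:**
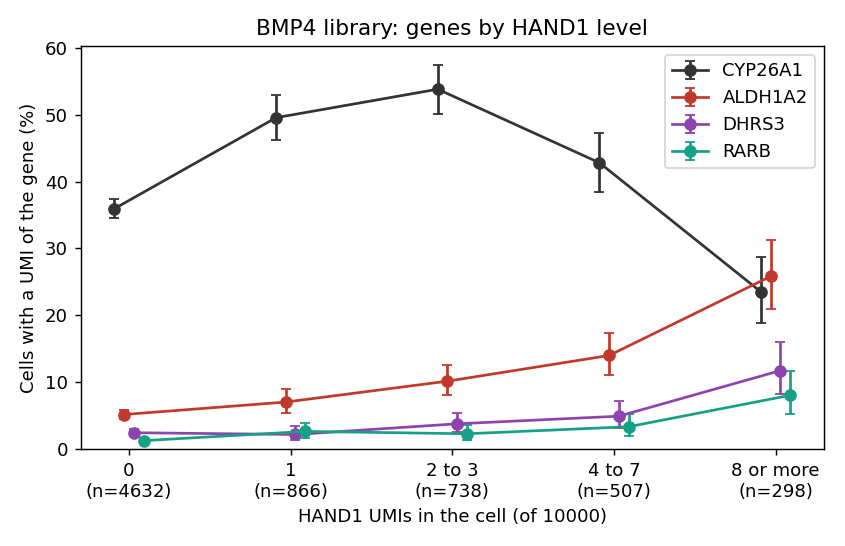
Share of BMP4 cells (%) in which CYP26A1, ALDH1A2, DHRS3 and RARB were detected, by the HAND1 UMIs of the cell after thinning to 10000 UMIs, with exact 95% intervals. ALDH1A2 climbs from 5.18% to 25.8%, DHRS3 and RARB are highest in the last bin, and CYP26A1 peaks at 53.8% and drops to 23.5%.

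Of the 28 BMP4 cells with 3 or more ALDH1A2 UMIs, 23 (82.1%) were HAND1+ and 11 (39.3%) TFAP2A+ GATA3+, against 21.7% and 1.67% of the other cells, and 2 were CER1+. CYP26A1 was detected in 5 of the 28 (17.9%), against 39.7% of the 6517 cells without ALDH1A2. RARB was detected in 8 of them (28.6%, 13.2 to 48.7) against 1.80%, and DHRS3 in 5 (17.9%, 6.06 to 36.9) against 2.92%. Genes most like ALDH1A2 across BMP4 cells were the sodium-calcium exchanger SLC8A1 (r = 0.247) and ARHGAP24 (0.202). HAND1 (0.19996), LRP1B (0.1998) and ISL1 (0.190) followed, at or under the value of 0.2 below which r is not read. In CHIR and CHIR+Activin ALDH1A2 was detected in under 5% of cells, and likeness was not computed.

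No group of cells stood out for ALDH1A2 in CHIR, where shares ran from 3.15% (1.962 to 4.78) in TBXT+ cells to 4.62% (3.35 to 6.19) in FOXA2+ cells, with overlapping intervals. In CHIR+Activin it was detected in 5.37% (3.68 to 7.54) of TBXT+ SOX2- cells and in 1.90% (1.20 to 2.87) of SOX2+ TBXT- cells. The streak cells of that library were thus the higher group, at a share below that of the TFAP2A+ GATA3+ cells of BMP4.

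DHRS3 (ENSG00000162496), the reductase that returns retinaldehyde to retinol, was found in few cells of each library. Its level was 3.80 CPM in BMP4 (3.48 to 4.14), 2.28 CPM in CHIR (2.07 to 2.51) and 2.95 CPM in CHIR+Activin (2.66 to 3.26), and it was detected in 3.14%, 2.16% and 2.92% of thinned cells. BMP4 was highest, with log2 ratios of -0.74 (-0.93 to -0.55) for CHIR over BMP4 and -0.37 (-0.56 to -0.17) for CHIR+Activin over BMP4.

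The group with the highest share of DHRS3 was TFAP2A+ GATA3+ in BMP4, a group with no thinned cells in the other libraries. In both of those it was SOX2+ TBXT-. In BMP4, DHRS3 was detected in 22.7% (15.7 to 30.9) of TFAP2A+ GATA3+ cells, against 1.61% (1.28 to 1.996) of cells with neither marker and 1.07% (0.674 to 1.62) of CER1+ cells. Those TFAP2A+ GATA3+ cells were 1.82% of thinned BMP4 cells and held 15.7% of the DHRS3 UMIs, at 28.0 CPM. Over the HAND1 bins DHRS3 was detected in 2.46%, 2.19%, 3.79%, 4.93% and 11.7% of cells. In CHIR it was detected in 3.48% (2.37 to 4.90) of SOX2+ TBXT- cells and 0.588% (0.191 to 1.37) of CER1+ cells. In CHIR+Activin the shares were 4.85% (3.68 to 6.25) of SOX2+ TBXT- cells and 1.07% (0.600 to 1.76) of CER1+ cells. In BMP4 the same groups had 3.75% (1.81 to 6.78) and 1.07%, so in each library DHRS3 was detected more often in SOX2+ TBXT- than in CER1+ cells, the reverse of CYP26A1.

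RARB (ENSG00000077092), the receptor whose promoter holds a DR5 element, was detected in 1.99%, 1.93% and 1.59% of thinned cells. Its level was 2.22 CPM in BMP4 (1.97 to 2.48), 2.19 CPM in CHIR (1.98 to 2.42) and 1.72 CPM in CHIR+Activin (1.498 to 1.955). The log2 ratio of CHIR over BMP4 was -0.02 (-0.23 to 0.20), an interval that spans 0, and that of CHIR+Activin over BMP4 was -0.37 (-0.63 to -0.12). In BMP4 RARB was detected in 15.6% (9.81 to 23.1) of TFAP2A+ GATA3+ cells, against 1.39% (1.09 to 1.76) of cells with neither marker and 0.729% (0.350 to 1.34) of MESP1+ HAND1- cells. The same 128 cells held 16.8% of its UMIs. Over the HAND1 bins it was detected in 1.27%, 2.66%, 2.30%, 3.35% and 8.05% of cells. In BMP4 RARB was thus highest in the group with the lowest share of CYP26A1. In BMP4 droplets without a cell RARB stood at 3.69 CPM, DHRS3 at 5.08 CPM and ALDH1A2 at 9.69 CPM, each at or above its level in the cells as a whole, and the part of free RNA in the shares was not tested.

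In the other libraries no group stood apart for RARB, and 0 thinned cells were TFAP2A+ GATA3+. Its shares ran from 1.35% (0.496 to 2.91) in TBXT+ SOX2- cells to 3.17% (0.387 to 11.0) in 63 SOX2+ TBXT+ cells in CHIR. In CHIR+Activin they reached 1.99% (1.27 to 2.97) in SOX2+ TBXT- cells.

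The binding proteins were spread far more evenly. CRABP1 (ENSG00000166426) stood at 75.4 CPM in BMP4 (74.0 to 76.9), 90.3 CPM in CHIR (88.9 to 91.7) and 94.9 CPM in CHIR+Activin (93.2 to 96.5), and was detected in 49.7%, 58.8% and 59.2% of thinned cells. CRABP2 (ENSG00000143320) stood at 95.5 CPM in BMP4 (93.9 to 97.2), 108 CPM in CHIR (107 to 110) and 78.9 CPM in CHIR+Activin (77.4 to 80.4), and was detected in 59.1%, 64.4% and 52.5% of thinned cells. BMP4 was thus lowest for CRABP1 and CHIR+Activin lowest for CRABP2. Of all ratios between the libraries for these genes, the widest was that of CRABP2 in CHIR+Activin over CHIR (log2 ratio -0.46, -0.49 to -0.42). It ranked 97 from the lowest among 9821 genes, in the pair of libraries in which the fewest genes were 2-fold apart.

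Between cell groups the binding proteins differed in BMP4, with the SOX2+ TBXT- cells at opposite ends of the order. CRABP1 was highest in the SOX2+ TBXT- cells, in 67.8% (61.8 to 73.4), and lowest in the SOX17+ TFAP2C+ cells, in 31.4% (24.6 to 38.9). CRABP2 was lowest in the SOX2+ TBXT- cells, in 43.1% (37.1 to 49.2), and highest in 73.5% (66.4 to 79.8) of the 181 cells positive for the caudal factor CDX2. By summed level the SOX2+ TBXT- cells had 113 CPM of CRABP1 and 53.6 CPM of CRABP2. The TFAP2A+ GATA3+ cells had 40.3 CPM of CRABP1 and 95.1 CPM of CRABP2. With rising HAND1, CRABP1 was detected in 52.6%, 47.0%, 44.2%, 44.0% and 34.6% of cells and CRABP2 in 57.0%, 60.2%, 63.7%, 66.5% and 64.1%.

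In CHIR the shares by cell group stayed within 55.9% to 59.0% for CRABP1 and 56.3% to 66.3% for CRABP2. The ends of the CRABP2 range, CER1+ and FOXA2+ cells, differed by 10.05 percentage points, and by -0.292 when cells were thinned to 6000 UMIs. In CHIR+Activin they stayed within 49.3% to 59.3% and 48.4% to 55.1%. No gene reached an r of 0.2 with either binding protein in any library. The leading ones in BMP4 were KIAA0825 for CRABP1 (0.157) and the neurotensin gene NTS for CRABP2 (0.153), both too weak to read. Detection of CRABP2 differed between cells with and without CRABP1 by less than its counting intervals. CRABP2 was detected in 58.7% of BMP4 cells with CRABP1 and in 59.4% of those without, with like pairs of 64.4% and 64.4% in CHIR and 52.2% and 52.8% in CHIR+Activin.

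In BMP4 cells DHRS3, RARB and ALDH1A2 were each detected more often beside one another, and DHRS3 and RARB less often beside CYP26A1. Cells with DHRS3 also had RARB in 8.60% (5.26 to 13.1), against 1.77% (1.47 to 2.12) of cells without, and ALDH1A2 in 14.03% (9.73 to 19.3) against 7.23% (6.63 to 7.87). Cells with RARB had ALDH1A2 in 16.4% (10.7 to 23.6) against 7.26% (6.66 to 7.90). Cells with CYP26A1, by contrast, had DHRS3 in 1.73% (1.28 to 2.28) against 4.06% (3.49 to 4.69) of cells without it, and RARB in 1.01% (0.671 to 1.45) against 2.63% (2.17 to 3.15). ALDH1A2 was found in 6.91% of cells with CYP26A1 and 7.79% without, with overlapping intervals. CRABP2 was found more often beside CYP26A1, in 63.6% against 56.1%.

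In the other libraries the intervals of DHRS3 with RARB overlapped. In CHIR, cells with DHRS3 had RARB in 2.01% (0.417 to 5.77) against 1.93% (1.61 to 2.29) without. In CHIR+Activin, 1 of 191 cells with DHRS3 had RARB. Cells with CYP26A1 in CHIR+Activin had DHRS3 in 1.42% (0.796 to 2.33) against 3.21% (2.76 to 3.71), the direction seen in BMP4. In CHIR the pair was 1.41% (0.678 to 2.58) and 2.25% (1.89 to 2.65), with overlapping intervals. ALDH1A2 was found in 4.16% (3.04 to 5.54) of CHIR+Activin cells with CYP26A1 and 2.75% (2.34 to 3.22) without. These intervals overlapped, as they did in BMP4.

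The other genes of the pathway came from a list of 65, of which 59 were not members. Of the 59, 18 reached 10 CPM in CHIR or BMP4, and 2 were at least 2-fold higher and 2 at least 2-fold lower in CHIR, beside 2.85% and 3.09% of all genes. In CHIR+Activin over BMP4, 1 of 18 was higher and 3 were lower, beside 1.84% and 2.88% of all genes, and in CHIR+Activin over CHIR 0 of 15 were in either direction, beside 0.183% and 0.0204%. The median log2 ratios of these genes were -0.04, -0.00033 and -0.05, near the medians of all genes.

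LRAT, which makes the storage form of retinol, was at 7.31 CPM in BMP4, 20.3 in CHIR and 13.4 in CHIR+Activin, log2 ratios to BMP4 of 1.48 and 0.88. BMP4 was thus lowest for LRAT. RDH10, which makes retinaldehyde for ALDH1A2, was at 10.7, 6.28 and 6.39 CPM (-0.77 and -0.75), highest in BMP4. The widely expressed dehydrogenases ADH5 and RDH11 were at 202, 219 and 218 CPM and at 90.0, 111 and 104 CPM. RDH13 (10.8, 17.4 and 15.9 CPM), RDH14 (43.3, 37.4 and 40.5 CPM) and the retinyl ester hydrolase PNPLA4 (26.5, 30.5 and 28.3 CPM) also stayed within 2-fold. The fatty acid binding protein FABP5, which can also carry retinoic acid, was at 2464, 1281 and 1607 CPM (-0.94 and -0.62).

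Among receptors, RARG was at 16.5, 4.91 and 5.41 CPM (-1.75 and -1.61), whereas RXRA was at 10.5, 9.73 and 10.6 CPM. NRIP1, a co-repressor of nuclear receptors, was at 56.0, 29.3 and 26.8 CPM (-0.94 and -1.06), and CDX1, a caudal factor known to respond to retinoic acid, at 17.9, 7.23 and 5.93 CPM (-1.31 and -1.59). RARG, NRIP1 and CDX1 were each highest in BMP4. The co-regulators NCOR1 and NCOA3 had log2 ratios of 0.03 and 0.08 for CHIR over BMP4, and NCOA1 and NCOA2 were lower in CHIR (-0.61 and -0.41). The other breakdown enzymes, CYP26B1 and CYP26C1, were at most 0.189 CPM in any library.

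With a minimum of 1 CPM, 6 of the 7 listed response genes that reached 1 CPM were at least 2-fold lower in CHIR than in BMP4, CDX1 included, beside 4.69% of all genes. In CHIR+Activin 6 of 7 were, beside 4.57%. MEIS1 was at 7.84, 1.28 and 1.47 CPM, MEIS2 at 6.12, 0.912 and 1.03 CPM and HOXB2 at 3.17, 0.119 and 0.0919 CPM. These homeobox genes were chosen to be named after their values were seen. A pathway gene also differed between cell groups. In BMP4, NRIP1 was detected in 60.9% (51.9 to 69.4) of TFAP2A+ GATA3+ cells against 35.0% of cells with neither marker.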

How the data were processed

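Single-cell RNA was counted in 3 libraries, 1 per treatment. Each deposited matrix gives, for every gene and barcode, the number of UMIs as raw counts. Cell Ranger 8.0.1 made them, per the file headers. The submitters' processing notes also name Seurat. The genome build, annotation and treatment of intronic reads were not given in the sources used here. The CHIR and CHIR+Activin matrices hold barcodes called as cells. The BMP4 matrix holds all 1935344 barcodes, and its cells were called at 3739 UMIs or more (10% of the 99th percentile among the 10000 deepest barcodes). Cells with at least 2000 genes and at most 15% mitochondrial UMIs were kept, which left out 39 BMP4, 622 CHIR and 515 CHIR+Activin barcodes. Doublets were kept, and Scrublet (scanpy 1.11.5) served as an alternative in which the highest-scoring 6% of cells were left out, because its automatic threshold marked only 2, 0 and 4 cells.

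UMIs were summed over cells and scaled to CPM, and log2 ratios between libraries carry exact conditional binomial 95% intervals. At these totals 3 counts are 0.0219 CPM in BMP4, 0.0162 in CHIR and 0.0230 in CHIR+Activin. Shares carry exact Clopper-Pearson 95% intervals. Both cover counting error only, and cells of 1 library are not replicates. Cells were thinned to 10000 UMIs with a fixed seed (1), and a cell counted as positive for a marker at 2 UMIs and as negative at 0. Cell groups with under 50 cells are not reported, and groups overlap. A cell without the markers of a group has 0 UMIs of each of its positive markers.

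The members and the gene lists were chosen with earlier results of these data known. Named are all members, the list genes with at least 10 CPM in a library, the markers, the 5 genes most like a member detected in at least 5% of cells, and the groups with the highest and lowest shares. Some genes that this rule names are not reported here. Promoter sequences are those of RefSeq (GRCh38.p14), used without reference to the counting annotation. The steps were tested on simulated data. Alternatives were other cell filters, doublet removal, median-ratio scaling, a mean over single cells, a minimum of 1 CPM, 6000 UMIs and marker thresholds of 1 and 3 UMIs. Python 3.11.15, numpy 2.4.6, scipy 1.17.1 and pandas 2.3.3 were used.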

Additional observations from a re-analysis of the deposited data

Results flagged for a closer look

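The BMP4 matrix also holds droplets without a cell, which are in no comparison of the report and are given here because all 6 members had UMIs in them. In 79779 droplets of 30 to 200 UMIs, CYP26A1 stood at 95.2 CPM, CRABP1 at 95.1 CPM and CRABP2 at 76.1 CPM. DHRS3 stood at 5.08 CPM, ALDH1A2 at 9.69 CPM and RARB at 3.69 CPM, from 33, 63 and 24 UMIs. Relative to the level in BMP4 cells these are 86.8% for CYP26A1, 126% for CRABP1, 79.7% for CRABP2, 134% for DHRS3, 100.5% for ALDH1A2 and 167% for RARB. The groups of cells in the report differed in these genes within the BMP4 library. Free RNA was not measured for each group, and its part in their shares was not tested.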

How the results depend on the processing

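No paired analysis was possible because each treatment had 1 library and the labels carry no replicate numbers. Of 90 values of member log2 ratios under other settings, 88 stayed within the counting interval of the reported value and 2 moved by a little more, both under median-ratio scaling in CHIR+Activin over CHIR. With a minimum of 1 CPM in place of 10, genes at least 2-fold higher and lower numbered 817 and 804 in CHIR over BMP4, 472 and 773 in CHIR+Activin over BMP4, and 78 and 16 in CHIR+Activin over CHIR. Retinoid list genes other than the members then numbered 4 higher and 8 lower in CHIR over BMP4 and 2 and 8 in CHIR+Activin over BMP4.

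Marker thresholds moved the 4 gaps listed first here, those of CYP26A1 in each library and ALDH1A2 in BMP4, without changing their direction. At thresholds of 1 and 3 UMIs, the gap in CYP26A1 detection was 50.3 and 68.6 percentage points in BMP4 (CER1+ minus TFAP2A+ GATA3+), against 62.9 as reported. It was 13.6 and 28.3 in CHIR (CER1+ minus SOX2+ TBXT-), against 21.6, and 25.8 and 48.4 in CHIR+Activin (TBXT+ SOX2- minus SOX2+ TBXT-), against 36.0. The ALDH1A2 gap in BMP4 (TFAP2A+ GATA3+ minus SOX2+ TBXT-) was 15.7 and 49.7 against 35.3. The gap in CRABP2 detection in CHIR (FOXA2+ minus CER1+) went from 10.05 to -0.292 points at 6000 UMIs, and the cause was not tested. In CHIR+Activin the CRABP2 gap between SOX2+ TBXT+ and CER1+ cells, 6.68 points as reported and within its counting error, was -7.78 at 6000 UMIs and -6.85 at 3 UMIs. Other gaps that changed sign were also near 0 or within counting error as reported. Of the shares of cells under other settings, 118 stayed within their interval, 25 moved and 1 reversed. Depth limits DHRS3 and RARB, detected in at most 3.14% of thinned cells. With 1 library per treatment, variation between colonies, dissociations and library preparations cannot be told apart from treatment.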
